A study of Mus musculus with 6 samples.

Results

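Mitotic and kinetochore genes, 40 in all and chosen by name for their roles in cell division, were followed in scar cells of the mouse heart. They were chosen with earlier results of these data known, so counts and medians over the list describe it and do not test it. All 40 were found by gene symbol among the 42256 genes of the count table, and all 40 were among the 15840 genes that passed the filter on low counts. RNA was sequenced from PDGFRa+ cells, a fibroblast-enriched fraction that was sorted from collagenase-digested scar 7 days after cardiac injury, on a mixed 129S2/C57Bl6 background. The 2 control libraries came from mice with loxP-flanked Htr2b on both alleles (Htr2bfl/fl) and no Cre. The 4 Htr2b_cKO libraries came from mice with the same floxed alleles and 1 Postn allele that carries the tamoxifen-inducible Cre (Htr2bfl/flPostnMCM/+). Tamoxifen was given in the chow to all mice, controls included, starting 1 week ahead of injury, and no age is given in the labels. The Cre is driven from Postn, a gene of activated fibroblasts, so other cells in the sort would keep Htr2b. Both controls lack the Cre and the altered Postn allele, so their effects and that of losing the receptor cannot be told apart.

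Mitosis separates copied chromosomes. Cyclins with the kinase CDK1 drive entry, kinetochores built on centromeric chromatin bind spindle microtubules, a checkpoint holds anaphase until all are attached, and the anaphase-promoting complex then marks cyclins for destruction. Cardiac fibroblasts seldom divide in the healthy heart and proliferate in the first days after an infarct, and transcripts of this kind are commonly read as a measure of cycling cells. In bulk RNA, a different number of cycling cells and a different amount of mitotic RNA per cycling cell cannot be told apart.

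Mitotic genes share promoter elements. The element TTTGAA, or its variant TTCGAA, is the core of the cell cycle genes homology region (CHR), which the DREAM complex binds in resting cells and which B-MYB and FOXM1 use with the MuvB core in dividing cells. CCAAT is bound by NF-Y. RefSeq promoter windows on GRCm38.p6, from 250 bases before to 50 bases after the annotated start, were found for 35 of the 40 genes, and both strands were searched. TTTGAA stood in 28 of 35 (80.0%), against 17.9% of all 32851 windows in the table. TTTGAA or TTCGAA stood in 29 of 35 (82.9%, against 19.2%), CCAAT in 26 of 35 (74.3%, against 37.4%), and CCAAT with either CHR core in 24 of 35 (68.6%, against 7.52%). The 6 genes without a CHR core in the window were Birc5, Ccnb1, Cenpe, Mad2l1, Nuf2 and Nusap1. The 5 windows below belong to the long and short transcripts that are contrasted throughout, and run from 150 bases before to 20 bases after the start, 5′ to 3′ on the gene's strand, with matches to either CHR core or to CCAAT, on either strand, in capitals.

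Cenpf, chr1:189688067-189688236, minus strand: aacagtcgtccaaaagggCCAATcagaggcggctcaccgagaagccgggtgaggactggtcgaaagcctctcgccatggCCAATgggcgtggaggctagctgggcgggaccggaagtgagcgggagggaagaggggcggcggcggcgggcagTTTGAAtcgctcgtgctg
Cenpe, chr3:135212413-135212582, plus strand: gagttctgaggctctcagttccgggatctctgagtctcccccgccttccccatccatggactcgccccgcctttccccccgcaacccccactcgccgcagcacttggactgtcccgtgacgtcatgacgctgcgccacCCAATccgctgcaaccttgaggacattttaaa
Mki67, chr7:135716360-135716529, minus strand: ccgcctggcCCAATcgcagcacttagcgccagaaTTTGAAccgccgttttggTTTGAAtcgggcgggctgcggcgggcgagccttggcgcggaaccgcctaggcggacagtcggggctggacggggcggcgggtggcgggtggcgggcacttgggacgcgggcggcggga
Birc5, chr11:117849087-117849256, plus strand: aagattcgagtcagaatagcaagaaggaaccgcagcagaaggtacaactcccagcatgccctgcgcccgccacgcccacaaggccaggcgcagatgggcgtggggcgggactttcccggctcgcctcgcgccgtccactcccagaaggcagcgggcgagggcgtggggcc
Ube2c, chr2:164769779-164769948, plus strand: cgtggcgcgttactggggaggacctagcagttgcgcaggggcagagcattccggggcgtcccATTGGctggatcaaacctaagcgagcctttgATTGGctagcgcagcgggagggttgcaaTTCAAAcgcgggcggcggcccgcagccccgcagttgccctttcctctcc

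The window of Birc5 held none of these letters, that of Cenpe held CCAAT alone, and those of Cenpf, Mki67 and Ube2c held both kinds of element. Among these 5 genes long and short transcripts alike included windows with and without a CHR core.

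Library totals ran from 28533427 to 37392496 estimated counts, and the 40 genes had between 127 and 4008 counts each in a library. Htr2b had 13 and 7 counts in the controls and 0, 3, 29 and 4 in Htr2b_cKO libraries 1 to 4, so the library labelled Htr2b_cKO 3 stood above both controls, against its label. Counts over the whole gene do not show removal of an exon. Htr2b_cKO 4 was the single male library by Xist and Kdm5d. Fibroblast markers (Pdgfra, Col1a1, Col1a2, Col3a1, Dcn and Tcf21) summed to 89126 and 113722 CPM (counts scaled to an equal library size, with TMM factors) in control and to 73927 to 128263 in Htr2b_cKO libraries, and all 6 were detected in every library. Of 6 macrophage markers all were detected in every library, at a sum of 2256 and 670 CPM in control and of 685, 1886, 3778 and 286 CPM in Htr2b_cKO libraries 1 to 4. The sum of 4 endothelial markers was 215 and 41.5 CPM in control and 39.7 to 78.4 CPM in Htr2b_cKO, that of 4 mural markers 252 and 272 against 191 to 315 CPM, and that of 4 cardiomyocyte markers 7.09 and 27.7 against 8.32 to 21.2 CPM. Of 5 lymphocyte markers Cd3e and Ms4a1 were at 0 in Htr2b_cKO 1, and the sum was 5.50 and 17.7 against 2.32 to 8.24 CPM. Of 4 neutrophil markers Ly6g was at 0 in Htr2b_cKO 4, and the sum was 33.1 and 95.9 against 23.3 to 74.3 CPM. These sums varied between libraries of 1 genotype, and their part in the results that follow was not tested.

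The 40 transcripts did not shift as a block. Cenpf, Cenpe, Mki67, Kif20b and Knl1 had 1.80 to 2.51 times the control level in Htr2b_cKO libraries, and Birc5, Ube2c, Cenpa and Cdc20 0.989 to 1.01 times. The first group held the highest folds of the 40, and the second lay close to the control level, with other genes lower still. The 12 genes with a coding sequence of 3000 bases or more ran from 0.989 (Bub1b) to 2.51 times (Kif20b), and the 15 under 1500 bases from 0.819 (Aurka) to 1.56 times (Nuf2). No gene of the list passed the test over all genes (edgeR quasi-likelihood F test, Benjamini-Hochberg adjusted p under 0.05), where 3 of 15840 genes (0.0189%) were called. At an unadjusted p under 0.05, 18 of the 40 were higher in Htr2b_cKO and 0 lower, beside 6.6% and 2.99% of all genes. The 4 Htr2b_cKO values lay above both controls for 18 of the 40 and below both for 0, beside 10.6% and 8.98% of all genes. The median log2 fold change, Htr2b_cKO minus control, was 0.36 for the 40 genes and 0.00 for all genes tested, with 30 of 40 above 0. DESeq2 called 4 of the 40, all higher, beside 0.523% of genes called higher over all genes by that tool, and they were Cenpf (adjusted p = 0.000109), Cenpe (0.00688), Kif20b (0.0207) and Mki67 (0.0288). With 2 against 4 libraries a permutation test of a single gene could not go below 0.0667.

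The summed level of the 40 genes was 1078 and 922 CPM in the controls and 1374, 1406, 1100 and 1148 CPM in Htr2b_cKO libraries 1 to 4. All 4 Htr2b_cKO sums lay above both controls, and the library labelled Htr2b_cKO 3, with the highest macrophage sum and the lowest fibroblast sum, lay closest to them. Without that library 19 of the 40 had an unadjusted p under 0.05, all higher, beside 8.62% of genes higher, and the median was 0.41. Without control 1 the number was 7 (1.72% of all genes higher), the median 0.42 and all 40 estimates were above 0. Without control 2 the number was 8 (7.43%), the median 0.35 and 25 were above 0. It was 11 without Htr2b_cKO 1 (5.43%) and 10 without Htr2b_cKO 2 (5.67%). Each of these 4 libraries thus moved the count by over 1.5 times. In the fits with 1 control, that control stands alone and is assumed to vary like the Htr2b_cKO libraries.

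Genes of the centromere and kinetochore had log2 fold changes from -0.01 to 1.23. Of 7, 5 had an unadjusted p under 0.05, all higher. The same held for 6.6% of all genes, and for 13.3% of those with a coding sequence of 3000 bases or more. The median log2 fold change of the 7 was 0.64. Cenpf, whose product coats the outer kinetochore in mitosis, lies on chromosome 1 from 189640606 to 189688086 (mm10; coding length 8991 bases). It stood at 15.5 and 12.8 CPM in the controls and at 38.9, 33.8, 29.2 and 31.4 CPM in Htr2b_cKO libraries 1 to 4. Every Htr2b_cKO library was well above both controls, and the library labelled Htr2b_cKO 3 was the lowest of the 4. The means were 14.2 ± 1.9 (SD, n = 2) and 33.3 ± 4.2 (SD, n = 4) CPM, with a log2 fold change of 1.23 (SE 0.18, edgeR adjusted p = 0.21) that became 1.30 without the library labelled Htr2b_cKO 3.

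Cenpe, the kinesin that carries chromosomes towards the spindle equator, lies on chromosome 3 from 135212537 to 135273611 and has a coding length of 7413 bases. Its level was 15.5 and 15.2 CPM in control and 40.2, 35.5, 24.3 and 30.4 CPM in Htr2b_cKO. The groups did not overlap, and the controls were close together (log2 fold change 1.09, SE 0.22, edgeR adjusted p = 0.313; 1.21 without the library labelled Htr2b_cKO 3). Knl1, the scaffold that recruits checkpoint proteins, stood at 3.30 and 4.95 CPM in control and at 11.8, 11.6, 3.96 and 8.44 CPM in Htr2b_cKO. Here the library labelled Htr2b_cKO 3 lay between the controls while the other 3 were above them, so the groups overlapped (log2 fold change 1.13, SE 0.46, edgeR adjusted p = 0.494; 1.39 without that library).

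Nuf2 and Ndc80, partners in the complex that grips microtubule ends, had equal log2 fold changes. Nuf2 stood at 15.6 and 14.5 CPM in control and at 21.9, 25.5, 25.7 and 20.7 CPM in Htr2b_cKO (log2 fold change 0.64, SE 0.16). Ndc80 stood at 8.46 and 8.82 CPM in control and at 16.5, 14.1, 12.7 and 10.5 CPM in Htr2b_cKO (0.64, SE 0.22). Both groups were apart for each gene, and the ratio of Ndc80 to Nuf2 averaged 0.575 in control and 0.576 in Htr2b_cKO libraries. By library the ratio varied, at 0.543 and 0.607 in control and 0.752, 0.551, 0.496 and 0.506 in Htr2b_cKO libraries 1 to 4. Nuf2 is short by coding length (1389 bases), so coding length did not order every member of the list. By the union of annotated exons Nuf2 and Ndc80 are both long, at 6341 and 6493 bases. Spc25 of the same complex had 11.3 ± 2.0 (SD, n = 2) and 14.3 ± 1.9 (SD, n = 4) CPM, also without overlap (log2 fold change 0.35, SE 0.20). Cenpa, the histone variant that marks the centromere, was at 38.1 and 28.1 CPM in control and at 34.7, 33.3, 36.8 and 26.8 CPM in Htr2b_cKO, with full overlap (log2 fold change -0.01, SE 0.18).

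The chromosomal passenger complex, which corrects faulty attachments and later guides cytokinesis, showed no such difference. All 4 of its genes had log2 fold changes a little below 0, from -0.13 to -0.02. An unadjusted p under 0.05 was found for 0 of 4, beside 6.6% of all genes higher and 2.99% lower. Birc5, which encodes survivin, lies on chromosome 11 from 117849251 to 117855743 and has a coding length of 420 bases. It stood at 28.0 and 19.4 CPM in control and at 24.7, 25.4, 22.3 and 21.7 CPM in Htr2b_cKO. All 4 Htr2b_cKO values lay between the 2 controls (23.7 ± 6.1 and 23.5 ± 1.8 CPM; log2 fold change -0.02, SE 0.18, edgeR adjusted p = 0.983). The estimate for Birc5 followed the control used, at 0.28 without control 1 and -0.25 without control 2. Cdca8, which encodes borealin, had 27.6 and 16.3 CPM in control and 22.6, 21.1, 19.9 and 17.2 CPM in Htr2b_cKO. The scaffold gene Incenp had 48.0 and 34.1 CPM in control and 42.1, 45.5, 38.9 and 35.7 CPM in Htr2b_cKO. For each of these genes, and for the kinase gene Aurkb (16.6 ± 3.0 and 15.7 ± 1.2 CPM), control 1 was the highest of the 6 libraries.

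Cyclins, Cdk1 and genes of the anaphase-promoting complex were also near the control level, with a median log2 fold change of 0.01 over 6 genes. Of these, 0 had an unadjusted p under 0.05, beside 6.6% of all genes higher and 2.99% lower. Ube2c, the ubiquitin-conjugating enzyme of that complex, lies on chromosome 2 from 164769898 to 164778822 and has a coding length of 537 bases. It stood at 28.2 and 18.6 CPM in control and at 21.9, 27.7, 22.9 and 21.3 CPM in Htr2b_cKO. Again all 4 Htr2b_cKO values lay between the controls (23.4 ± 6.8 and 23.4 ± 2.9 CPM; log2 fold change 0.00, SE 0.20; 0.33 without control 1 and -0.26 without control 2). Its activator Cdc20 had 61.8 and 41.0 CPM in control and 55.0, 59.8, 48.2 and 45.7 CPM in Htr2b_cKO, likewise inside the controls. Ccna2, the cyclin of S phase and mitotic entry, differed from this pattern, with 33.2 and 29.9 CPM in control and 42.6, 51.4, 36.7 and 35.9 CPM in Htr2b_cKO. Its groups did not overlap (log2 fold change 0.40, SE 0.18, edgeR adjusted p = 0.532), though Ccna2 shares bases with Exosc9 on the other strand, and whether counting used strand is not given in the sources at hand. The mitotic cyclin genes Ccnb1 and Ccnb2 had log2 fold changes of 0.25 and -0.03, and Cdk1 had -0.14.

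Mitotic kinases and checkpoint genes were divided. The checkpoint kinase genes Bub1 and Ttk and the checkpoint gene Mad2l1 had an unadjusted p under 0.05, all higher. These were 3 of 6 in the group, beside 6.6% of all genes higher. Ttk had 6.23 ± 0.27 and 9.01 ± 0.78 CPM, and Mad2l1 21.8 ± 1.9 and 28.2 ± 1.9 CPM (log2 fold changes of 0.53 and 0.37). For Mad2l1 the direction turned once GC content and length were corrected, to -0.043. Bub1 stood at 6.69 and 7.56 CPM in control and at 11.1, 15.0, 8.36 and 13.0 CPM in Htr2b_cKO (log2 fold change 0.74, SE 0.26, edgeR adjusted p = 0.444). Bub1b, its checkpoint paralog, stood at 37.0 and 33.7 CPM in control and at 37.1, 43.0, 29.0 and 30.9 CPM in Htr2b_cKO (log2 fold change -0.02, SE 0.18). The 2 genes have nearly the same coding length, 3177 and 3156 bases, but differ in GC content, 41.0% and 50.4%. The first was apart between groups and the second overlapped. Aurka and Plk1, kinases of centrosome maturation and mitotic entry, had log2 fold changes of -0.29 and -0.16.

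All 6 mitotic kinesins had a log2 fold change above 0, from 0.10 to 1.33, where 7918 of all 15840 genes tested did. An unadjusted p under 0.05 was found for 3, beside 6.6% of all genes higher. Kif20b, which acts late in cytokinesis, had the largest fold of the 40 genes in this fit. It stood at 5.28 and 6.15 CPM in control and at 16.5, 18.0, 8.27 and 14.4 CPM in Htr2b_cKO (log2 fold change 1.33, SE 0.32, edgeR adjusted p = 0.327). All 4 values were above both controls, with the library labelled Htr2b_cKO 3 nearest to them (1.53 without it). Kif20a, its paralog at the central spindle, has a coding length of 2661 bases against 5322, and a GC content of 48.4% against 39.4%. It stood at 47.3 and 36.8 CPM in control and at 53.6, 48.4, 36.6 and 42.0 CPM in Htr2b_cKO (log2 fold change 0.10, SE 0.19), with overlap; part of its transcript lies opposite Cdc23. Kif4 and Kif2c, which act on chromosome arms and at centromeres, overlapped as well (0.31 and 0.10). Kif23 and Kif11, motors of the midzone and of spindle bipolarity, had 16.0 ± 1.4 and 25.7 ± 3.1 CPM and 15.6 ± 1.9 and 25.0 ± 6.9 CPM in control and Htr2b_cKO. The groups were apart for Kif23 and overlapped for Kif11, whose value in the library labelled Htr2b_cKO 3 (16.3 CPM) lay below control 2 (16.9 CPM).

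Genes of spindle assembly and cytokinesis lay above 0 in 9 of 9 cases, beside 7918 of 15840 over all genes tested. Hmmr, a microtubule-associated receptor of hyaluronan, stood at 16.1 and 17.9 CPM in control and at 30.6, 25.2, 21.7 and 23.0 CPM in Htr2b_cKO (log2 fold change 0.56, SE 0.18, edgeR adjusted p = 0.41). Tpx2, which activates Aurora A on the spindle, stood at 46.5 and 39.7 CPM in control and at 57.7, 57.0, 52.5 and 44.2 CPM in Htr2b_cKO. The groups were apart for Hmmr and overlapped for Tpx2, whose Htr2b_cKO 4 value lay between the controls. Aspm, the long spindle pole gene (coding length 9366 bases), had 12.8 ± 1.3 and 20.5 ± 4.6 CPM. The microtubule-binding genes Nusap1 and Ckap2l had log2 fold changes of 0.50 and 0.40, the first without overlap and the second with it. Ect2, which helps place the cleavage furrow, stood at 12.2 and 9.87 CPM in control and at 15.1, 19.7, 14.9 and 13.4 CPM in Htr2b_cKO (log2 fold change 0.51, SE 0.21). The cleavage furrow gene Anln stood at 43.7 and 43.3 CPM in control and at 63.9, 62.4, 47.6 and 51.1 CPM in Htr2b_cKO (0.37, SE 0.16). Both were apart between groups, while the central spindle genes Prc1 and Racgap1 overlapped (log2 fold changes of 0.30 and 0.07).

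Mki67, which encodes the Ki-67 sheath of mitotic chromosomes and is the usual proliferation marker, lies on chromosome 7 from 135689784 to 135716361, with a coding length of 9531 bases. It stood at 57.2 and 62.2 CPM in control and at 122, 119, 80.2 and 108 CPM in Htr2b_cKO. All 4 were above both controls (59.7 ± 3.5 and 107 ± 19 CPM; log2 fold change 0.84, SE 0.19, edgeR adjusted p = 0.322; 0.97 without the library labelled Htr2b_cKO 3). Top2a, the topoisomerase that untangles sister chromatids, stood at 75.8 and 76.0 CPM in control and at 124, 121, 80.3 and 107 CPM in Htr2b_cKO (log2 fold change 0.51, SE 0.19). Mki67 and Birc5, both used as markers of proliferation, thus differed in the same libraries. The ratio of Mki67 to Birc5 CPM was 2.04 and 3.21 in the controls and 4.94, 4.69, 3.60 and 4.97 in the Htr2b_cKO libraries. The ratio of Cenpf to Birc5 was 0.554 and 0.660 in control and 1.58, 1.33, 1.31 and 1.45 in the Htr2b_cKO libraries, and that of Cenpe to Ube2c was 0.551 and 0.817 against 1.83, 1.28, 1.06 and 1.43. Each ratio was higher in all 4 Htr2b_cKO libraries than in both controls.

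**Figure D1:**
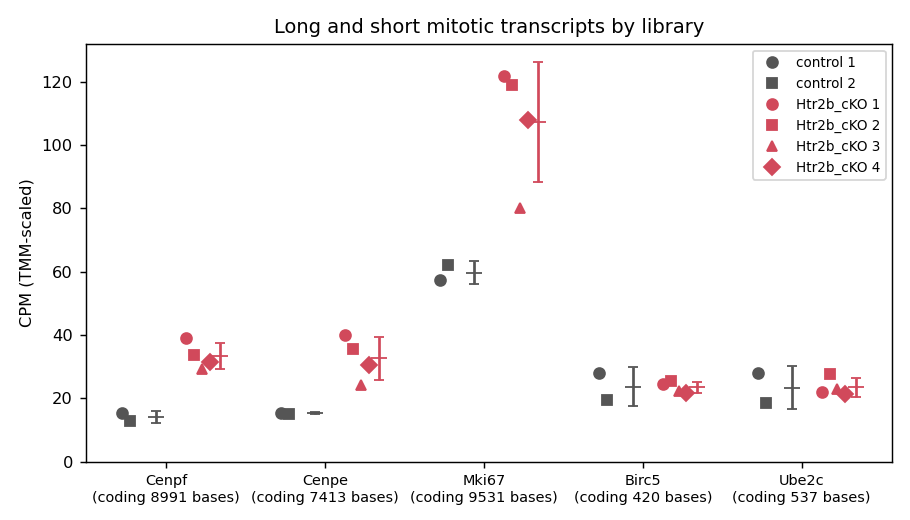
TMM-scaled CPM (vertical axis) of 3 long and 2 short mitotic transcripts in each of the 6 libraries, with the coding length in bases under each gene; points are libraries, and bars give the mean and SD of 2 control and 4 Htr2b_cKO libraries. Cenpf, Cenpe and Mki67 have all 4 Htr2b_cKO points above both controls, and for Birc5 and Ube2c all 4 lie between the controls.

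Set against length, the 40 genes formed a gradient. By the longest annotated coding sequence, a grouping chosen after seeing the data, 15 genes were under 1500 bases, 13 were from 1500 to under 3000 and 12 were 3000 bases or more. The median log2 fold change was 0.00 for the short, 0.30 for the middle and 0.71 for the long genes. An unadjusted p under 0.05, all higher, was found for 3 of 15, 5 of 13 and 10 of 12. The exceptions among the long genes were Bub1b and Kif4, and the short ones in the count were Mad2l1, Nuf2 and Nusap1. The same bands over all tested genes had medians of -0.07, 0.05 and 0.13, with 3.81%, 8.87% and 13.3% higher at that p, so the long genes of the whole transcriptome leaned the same way by less. The difference of medians, long minus short, was 0.71 for the 40 genes and 0.20 for all genes. It became 0.85 without the library labelled Htr2b_cKO 3 (all genes 0.27), 0.31 without control 1 (all genes 0.09) and 1.03 without control 2 (all genes 0.32). The difference between the list and all genes was not tested.

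By the union of annotated exons, with bands under 2000, 2000 to under 4000 and 4000 bases or more, the medians were -0.01 (2 genes), -0.02 (7 genes) and 0.50 (31 genes). Cenpa, Mad2l1 and Nuf2 are among the genes that are short by coding sequence and long by this measure (5860, 8390 and 6341 bases). Across the 40 genes Spearman's rank correlation of the log2 fold change with coding length was 0.69, and over 14396 tested genes with a coding length it was 0.25. GC content of the longest transcript was more closely related than coding length, with a rank correlation of -0.79 across the 40 genes and -0.44 over 15825 genes. GC content and coding length were themselves related across the 40 genes (rank correlation -0.32). Genes are not independent replicates and share the same 6 libraries, so these values describe the list. Cenpf and Mki67 transcripts were 43.3% and 46.6% GC, against 47.4% for Birc5 and 55.5% for Ube2c.

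**Figure D2:**
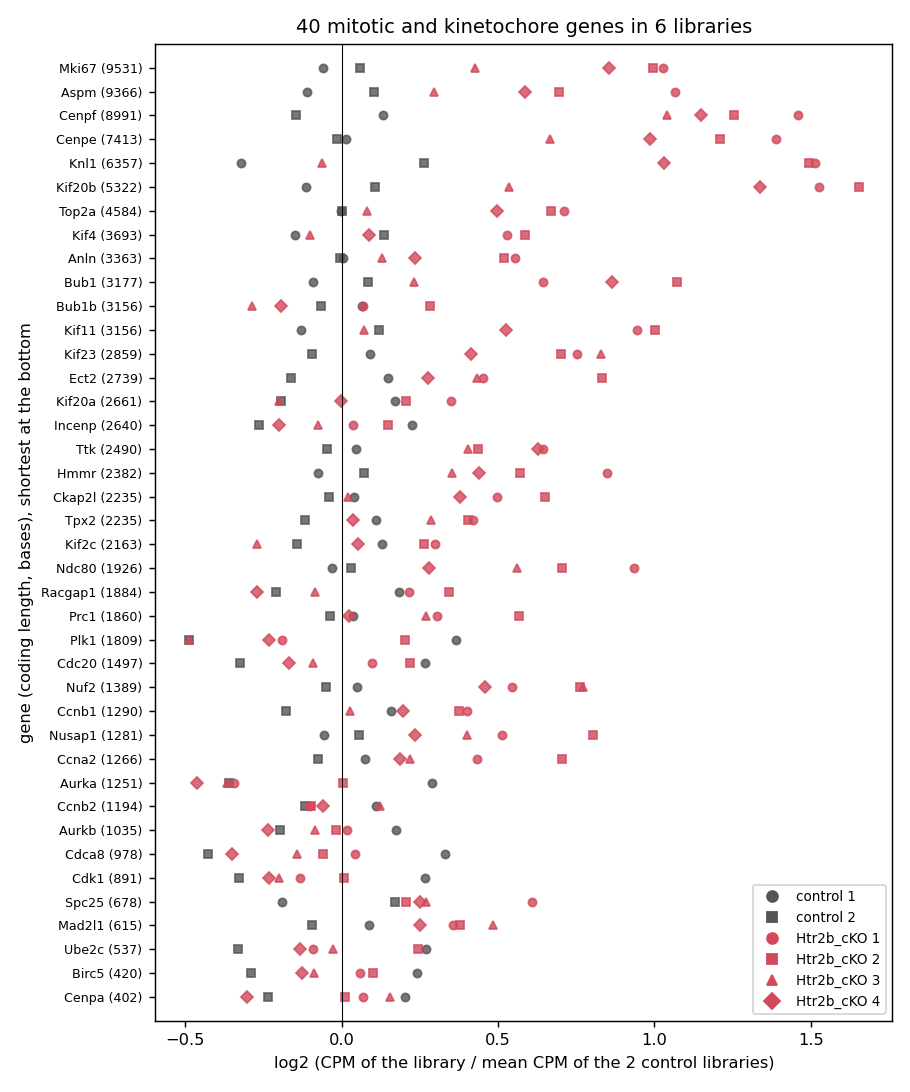
Each of the 40 genes on its own row, shortest coding sequence at the bottom; the horizontal axis is log2 of a library's CPM over the mean of the 2 controls, and points are libraries. The Htr2b_cKO points move to the right towards the top of the plot, and the library labelled Htr2b_cKO 3 (triangles) lies nearest to the controls in most of the upper rows.

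Each library was corrected for GC content and exon length with a smooth fit over all tested genes, and the test was repeated. After that, 5 of the 40 genes had an unadjusted p under 0.05, all higher, beside 2.85% of all genes. The Htr2b_cKO values lay above both controls for 10 and below for 0 (6.91% and 6.67% of all genes), and 0 of the 40 passed the adjusted threshold (edgeR). The 5 were Cenpf (log2 fold change 0.86), Kif20b (0.94), Cenpe (0.80), Mki67 (0.68) and Kif23 (0.55). The median of the 40 was 0.22, against 0.02 over all genes, and 33 of 40 were above 0. The medians by coding length were 0.10, 0.17 and 0.43 for the short, middle and long genes, against -0.01, 0.03 and 0.08 over all genes. By exon length, the length that was corrected, they became 0.20, 0.092 and 0.27, so that long minus short went from 0.51 to 0.0745. The short band by exon length held only 2 genes. After correction Spearman's rank correlation with exon length was 0.41 (0.67 before), with coding length 0.695 (0.693 before) and with GC content -0.48 (-0.79 before). How much of the gradient was left therefore depended on the length and the measure used. Birc5 stayed at -0.02 and Ube2c moved from 0.00 to 0.21. With the authors' own gene-specific factors as offsets, 13 of the 40 had an unadjusted p under 0.05, all higher (4.96% of all genes), with medians of -0.01, 0.39 and 0.67 from short to long.

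**Figure D3:**
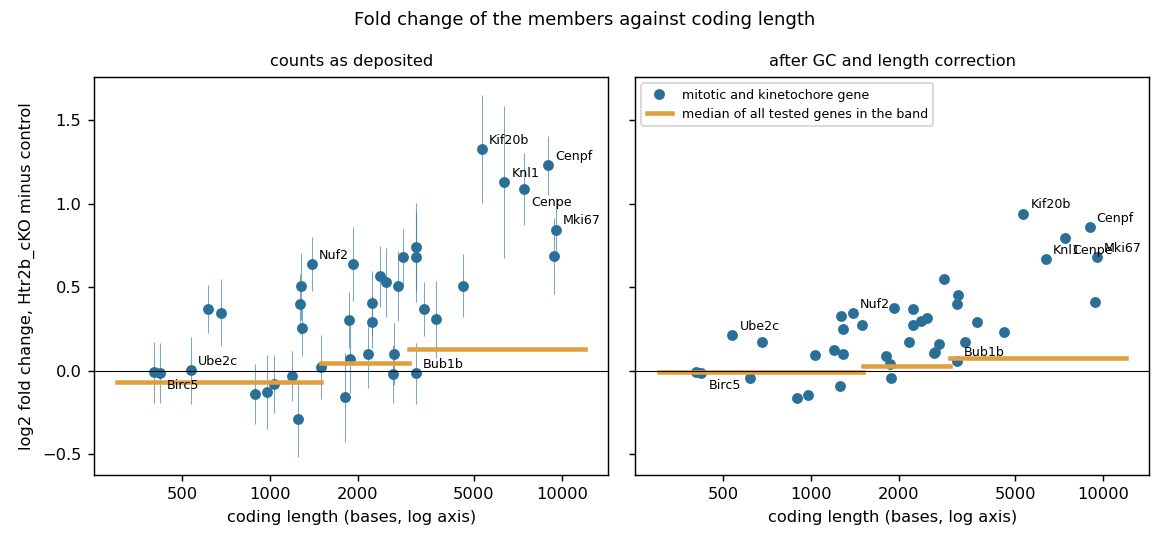
Log2 fold change, Htr2b_cKO minus control (vertical axis), against coding length in bases on a log axis for the 40 genes, from the counts as deposited (left, with SE bars) and after correction for GC content and exon length (right); orange lines are medians of all tested genes in 3 length bands. The genes of 3000 bases or more have a median of 0.71 on the left and 0.43 on the right, above the orange line at 0.13 and 0.08.

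The gradient differed among libraries of the same genotype. Relative to the mean of the controls, the median log2 CPM of the 12 long genes was -0.07 and 0.07 in control 1 and 2 and 0.99, 1.00, 0.18 and 0.72 in Htr2b_cKO libraries 1 to 4. For the 15 short genes it was 0.19 and -0.19 in the controls and 0.09, 0.21, 0.03 and -0.10 in the Htr2b_cKO libraries. Long minus short was therefore -0.26 and 0.26 in the controls and 0.90, 0.78, 0.15 and 0.82 in Htr2b_cKO, where the library labelled Htr2b_cKO 3 lay inside the control range and the other 3 lay above it. Over all tested genes long minus short was -0.11 and 0.11 in the controls and 0.33, 0.12, 0.01 and 0.34 in Htr2b_cKO, with the same library lowest of its group. Htr2b_cKO 2 held a mitotic difference of 0.78 beside an all-gene difference of 0.12 that was close to that of control 2. In summed CPM, the 12 long genes gave 299 and 309 CPM in control and 543, 533, 357 and 452 CPM in Htr2b_cKO, without overlap. The 15 short genes gave 420 and 320 CPM in control and 412, 439, 391 and 359 CPM in Htr2b_cKO, with overlap.

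**Figure D4:**
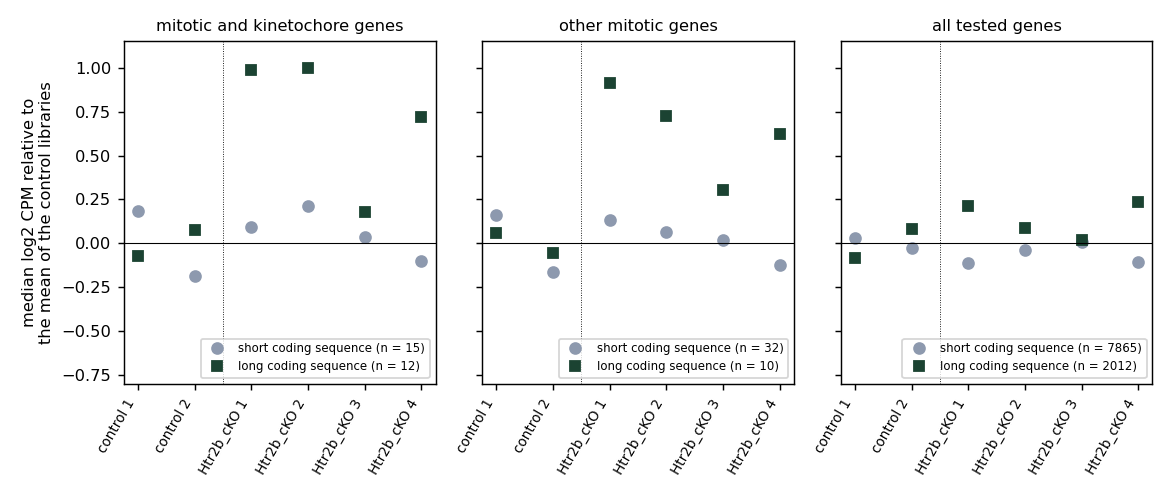
Median log2 CPM relative to the mean of the 2 controls (vertical axis) for genes with short (under 1500 bases, circles) and long (3000 bases or more, squares) coding sequences in each library, for the 40 genes, 68 other mitotic genes and all tested genes. The long mitotic genes stand at 0.72 to 1.00 in 3 Htr2b_cKO libraries and at 0.18 in the library labelled Htr2b_cKO 3, while the long genes of the whole table stay at 0.24 or less.

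The rest of the cell cycle was read from lists that share no gene with the 40. Of 68 other mitotic genes 0 were called by edgeR, 9 had an unadjusted p under 0.05 on the higher side and 0 on the lower (6.6% and 2.99% of all genes), and the median log2 fold change was 0.09. The leading genes were both condensin ATPases, which compact mitotic chromosomes. Smc4 stood at 43.7 and 42.3 CPM in control and at 91.8, 81.1, 68.3 and 86.3 CPM in Htr2b_cKO (log2 fold change 0.93, SE 0.15, edgeR adjusted p = 0.265), and Smc2 at 18.6 and 23.9 CPM against 44.7, 41.6, 33.3 and 46.1 CPM (0.97, SE 0.19, adjusted p = 0.313). Neither overlapped between groups, and with GC content and length corrected they had log2 fold changes of 0.60 and 0.62. These genes too divided by coding length, with medians of 0.04 for 32 short, 0.07 for 26 middle and 0.67 for 10 long genes, and with 0, 3 and 6 higher at an unadjusted p under 0.05, where 3.81%, 8.87% and 13.3% of all genes in the same bands were.

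Genes of G1/S and DNA replication had no higher level as a list. Of 50, 3 had an unadjusted p under 0.05 on the higher side and 0 on the lower, beside 6.6% and 2.99% of all genes, and the median log2 fold change was -0.06. Their summed level was 1340 and 1143 CPM in control and 1208, 1346, 1138 and 1172 CPM in Htr2b_cKO, all but 2 of the latter inside the control range. By coding length their medians were -0.11 for 24 short, -0.06 for 21 middle and 0.36 for 5 long genes, of which 4 lay above 0. Their long minus short difference by library was -0.09 and 0.09 in control and 0.52, 0.46, -0.17 and 0.62 in Htr2b_cKO, so 3 libraries lay above the controls and the library labelled Htr2b_cKO 3 below them, with only 5 long genes behind each value. The smallest p belonged to Atad2, a chromatin ATPase (log2 fold change 0.50, SE 0.18; 0.08 after the GC and length correction), and to Slbp, which binds histone mRNA (0.43, SE 0.17; 0.27). Of 20 genes of CDK inhibitors and the pocket protein and DREAM machinery, 1 had an unadjusted p under 0.05, on the higher side. Over all genes the share higher was 6.6%, so the list did not stand out. The 1 gene was the retinoblastoma gene Rb1, with a log2 fold change of 0.51 (SE 0.21, edgeR adjusted p = 0.489). Rb1 stood at 6.76 and 8.39 CPM in control and at 10.9, 11.9, 11.0 and 9.27 CPM in Htr2b_cKO. Lin54, the subunit that reads the CHR element, followed at a log2 fold change of 0.50 (SE 0.23, adjusted p = 0.532). With GC content and length corrected, the log2 fold changes of Rb1 and Lin54 were 0.21 and 0.23. The 1 gene of this list then under that p was Lin37 (0.53), beside 2.85% of all genes higher.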

How the data were processed

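RNA-seq of 6 sorted cell samples (4 Htr2b_cKO, 2 control, grouped by the genotype label) was used. The deposited estimated counts, 1 whole number for each Ensembl gene and library, carry a transcript quantifier's gene-level suffix per the file headers. A normalized signal deposited by the authors equals those counts over factors that vary by gene within a library (SD of the log2 factor 0.128 to 0.193 over 11933 genes averaging at least 100 counts). DRAGEN, DESeq2 and mm10 are named per the submitters' processing notes. The kit was directional per the labels' protocols, and the counter's version and strand setting are not given in the sources used. Ccna2, Kif20a and Kif4 overlap genes on the other strand, and Ccnb1 has near-identical pseudogenes. Ndc80 has copies at 92.9% and 90.9% identity over part of its transcript, with up to 85 and 74 counts in a library. Hmmr shares 390 bases at 90.5% identity with Colec12 (up to 7220 counts), and similar stretches with other transcripts. The counts of these genes are less certain.

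Symbols, coordinates and lengths came from GENCODE M21 (mm10), which held all 42256 gene IDs. The test was edgeR 4.0.16 in R 4.3.3 (quasi-likelihood F, two-sided, TMM, filterByExpr, robust), with genotype as its only term. SE is the fold change over the square root of F. Alternatives were DESeq2 1.42.0, limma 3.58.1 voom, RLE factors, legacy dispersion, no filter, the authors' factors, a GC and length correction (mgcv 1.9.3), and leaving out libraries. The scripts were tested on simulated data. Each of the 15 pairs of libraries differed beyond counting noise (chi-square over its degrees of freedom 50.4 to 206). Libraries are taken as animals, as the design text has them, and p-values measure the spread between libraries. The members, the gene lists and the rule on which genes to name (the 5 contrasted genes, per role the smallest p and the highest CPM, per further list the 2 smallest p) were chosen with earlier results of these data known. Other members were named after their values were seen.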

Additional observations from a re-analysis of the deposited data

Results flagged for a closer look

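Among the 4 Htr2b_cKO libraries, Spc25, the kinetochore gene of the Ndc80 complex, had 17.2 CPM in Htr2b_cKO 1, far from the other three at 13.0, 13.5 and 13.6 CPM. The gap took up 0.856 of the group's range, above Dixon's 95% critical value for 4 samples. About 1 in 20 such groups would be picked out by chance, and 40 genes were looked at.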

How the results depend on the processing

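No paired analysis was possible because the labels do not match any control library to an Htr2b_cKO library. Genes called numbered 3 over all genes, 105 with DESeq2, 5 with no filter and 5 without both Htr2b_cKO 3 and 4. With GC content and length corrected, 5 of the 40 genes had an unadjusted p under 0.05 (2.85% of all genes higher) and 10 had Htr2b_cKO above both controls (6.91%). By exon length the short band (2 genes) then had a median log2 fold change of 0.20, the long band 0.27, and long minus short 0.0745. Without both Htr2b_cKO 3 and 4, 29 had Htr2b_cKO above both controls, where 21.1% of all genes did against 10.6% with all libraries. The middle band was 0.28 by longest transcript and 0.30 by coding sequence, where the long band was 0.71 and long minus short 0.71. Leaving out 1 library at a time gave 1 to 8 genes called, 7 to 19 of the 40 with an unadjusted p under 0.05 (1.72% to 8.62% of all genes higher), 18 to 29 with Htr2b_cKO above both controls (13.1% to 24.3%) and 0 to 10 below (11.2% to 23.1%). The 10 below came without control 2, where 23.1% of all genes lay below control 1. When a control was left out, above and below were judged against the remaining control alone, not against both. Those counts and shares are therefore not the same measure as the others in these ranges. By exon length the short band then ran from -0.19 to 0.22, the middle band from -0.25 to 0.28 and long minus short from 0.26 to 0.64; by coding length long minus short ran from 0.31 to 1.03.

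The log2 fold changes that changed sign belonged to genes that had not passed the adjusted test, of which Mad2l1 (0.37) had an unadjusted p under 0.05. With RLE factors Ube2c was -0.000395; with the authors' factors Ube2c was -0.0128 and Incenp 0.16. The GC and length correction gave Ccnb2 0.12, Plk1 0.0901, Bub1b 0.0575, Mad2l1 -0.0427, Aurkb 0.0917, Incenp 0.11 and Racgap1 -0.0444. Without both Htr2b_cKO 3 and 4, Plk1 was 0.0143, Bub1b 0.18, Incenp 0.0911, Birc5 0.0739 and Cenpa 0.0380. Leaving out 1 library at a time, the ranges were Ccnb2 -0.13 to 0.0848, Cdk1 -0.40 to 0.19, Cdc20 -0.24 to 0.35, Ube2c -0.26 to 0.33, Plk1 -0.51 to 0.33, Aurka -0.56 to 0.0788 and Bub1b -0.13 to 0.0754. They were Aurkb -0.25 to 0.12, Incenp -0.24 to 0.25, Birc5 -0.25 to 0.28, Cdca8 -0.44 to 0.30, Cenpa -0.20 to 0.23, Kif20a -0.0610 to 0.29, Kif2c -0.0216 to 0.24 and Racgap1 -0.11 to 0.28. The cause was not tested. With 2 controls, each carries much of every estimate, and a lone control is assumed to vary like the other group.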
